A study of Mus musculus with 26 samples.

Results

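Regulatory T cells are CD4+ T cells that restrain immune responses, and 10 genes used to recognise them were followed here in the mouse spleen. They were Foxp3, Ikzf2, Il2ra, Ctla4, Tigit, Icos, Tnfrsf18, Tnfrsf4, Lrrc32 and Il10. They were chosen by gene name, and 10 of 10 were found among the 56392 genes of the deposited table. RNA sequencing of the spleen covered 26 libraries from female BALB/c mice aged 8 weeks. Mice given ovalbumin (OVA, the main protein of egg white, an allergen) together with miR-676-3p mimic, a synthetic copy of that microRNA, gave 5 libraries coded MM and 5 coded MN. Mice given OVA alone gave 6 libraries coded OS and 5 coded ON, and mice given saline gave 5 libraries coded CT. OVA (0.05 mg a day) or saline went into the peritoneum on days 1, 3 and 5, and the mimic into a tail vein on day 3 (7 mg per kg). The labels name no tail vein injection for mice given OVA alone or saline. The mimic and its injection therefore cannot be told apart. A group is stated to be 20 mice. The codes are not defined, and nothing says that libraries come from different mice, so p-values measure only the spread between these libraries, which may be technical.

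Foxp3 is the transcription factor that sets and keeps the identity of regulatory T cells. These cells bind interleukin-2 through the receptor chain made by Il2ra, take the co-stimulatory ligands CD80 and CD86 off antigen-presenting cells through CTLA-4, and release inhibitory cytokines such as interleukin-10 and TGF-beta. Several of these genes are not restricted to regulatory T cells: Ctla4, Icos and Tnfrsf4 are also switched on in conventional T cells after activation, Il10 is also made by macrophages and B cells, and Lrrc32 is also expressed by platelets and endothelium. In a whole organ such as the spleen, fewer cells of a type and less RNA per cell cannot be told apart.

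The mimic copies a mature microRNA, whose bases 2 to 8 (the seed) pair with sites in target messages. The RefSeq sequence of mmu-miR-676-3p (GRCm38.p6, chrX:100381151-100381171, + strand) is shown with its seed in capitals, and below it the site that matches the seed in the 3′ untranslated region of Il2ra (GRCm38, chr2:11690632-11690654, + strand), with the matching bases in capitals:
mmu-miR-676-3p: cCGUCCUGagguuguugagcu
Il2ra site: ggaagtccCAGGACGtggactta
The Il2ra site starts at base 858 of an untranslated region of 3411 bases. The other 9 members held no match to the seed in the longest annotated 3′ untranslated region of each. Of 20987 annotated genes with such a region, 502 (2.39%) held a match, so 1 of 10 members is a description and not a test.

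RefSeq start sites were given for 6 of 10 members, with 7 promoters in all, each reaching from 250 bases before the start to 50 after it. The promoters of Ctla4, the member with the smallest adjusted p between OS and saline, of Tnfrsf4, which varied with it across libraries, and of Foxp3 (the upstream of 2 start sites), which did so less, are shown for comparison. Capitals mark matches, on either strand, to the AP-1 motif TGANTCA, the forkhead motif TGTTTAC, the NFAT core GGAAA and the TATA box TATAAA (GRCm38.p6, all + strand):
Ctla4, chr1:60908775-60909074: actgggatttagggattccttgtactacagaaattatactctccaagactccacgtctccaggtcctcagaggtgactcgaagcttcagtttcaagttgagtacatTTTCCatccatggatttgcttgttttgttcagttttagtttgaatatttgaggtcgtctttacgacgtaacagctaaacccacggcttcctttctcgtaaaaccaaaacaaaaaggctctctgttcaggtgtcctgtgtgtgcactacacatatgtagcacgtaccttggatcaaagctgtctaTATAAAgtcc
Tnfrsf4, chr4:156013445-156013744: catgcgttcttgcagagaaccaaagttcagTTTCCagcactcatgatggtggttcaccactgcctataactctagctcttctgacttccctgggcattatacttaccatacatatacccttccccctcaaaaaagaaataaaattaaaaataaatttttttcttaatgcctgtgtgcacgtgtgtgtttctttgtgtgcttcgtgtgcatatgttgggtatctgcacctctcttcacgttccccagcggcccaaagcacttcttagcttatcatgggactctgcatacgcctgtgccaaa
Foxp3, chrX:7579426-7579725: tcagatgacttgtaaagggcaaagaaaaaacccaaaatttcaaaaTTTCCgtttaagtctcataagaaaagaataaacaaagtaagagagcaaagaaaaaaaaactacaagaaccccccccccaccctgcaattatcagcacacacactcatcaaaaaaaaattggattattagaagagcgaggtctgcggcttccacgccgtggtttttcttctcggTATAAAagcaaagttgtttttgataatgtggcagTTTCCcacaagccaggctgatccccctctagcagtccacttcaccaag
The NFAT core, a site for factors activated by T-cell receptor signalling, was present in 7 of 7 promoters of members and in 61.3% of 32851 RefSeq promoters of the same length. The letters of the TATA box were present in 2 of 7, against 13.6% of all promoters. In Foxp3 they began 32 bases before the start. In Ctla4 they began 40 bases after it, so that match is not a TATA box placed before this start. The AP-1 motif and the forkhead motif were present in 0 of 7, against 7.81% and 3.65% of all promoters, which says only that these letters are not in these windows.

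The reads recovered from the deposited values ranged from 14224832 in MM 2 to 18113989 in ON 4. Pancreatic genes held 23.3% of ON 2, 11.8% of MM 2 and 3.57% of ON 3 reads, while the remaining libraries reached 0.00318% at most. Mitochondrial genes held 6.62% of reads in CT 4, against 1.26% to 2.39% elsewhere, and CT 4 was the lowest library for Foxp3, Ctla4, Tnfrsf18, Tnfrsf4, Lrrc32 and Il10. Markers of spleen lymphocytes were present in every library: the summed level of 6 B-cell genes was 490 to 1250 FPKM and that of 10 core T-cell genes 108 to 277 FPKM. Levels are in FPKM, fragments scaled by gene length and library size, so that they can be set side by side between genes. The library size behind the deposited values was not the plain read total. It was 0.712 of the recovered reads in ON 2, 0.802 in CT 4, 0.885 in MM 2 and up to 1.12 in ON 1. Levels in ON 2 therefore stand higher than they would with plain read totals. Differences are of log2(FPKM + 1), which understates the change of low genes. They are given with their standard error from limma, with p-values adjusted over 15672 genes and called below 0.05. All 10 members passed the filter on low values (5 or more libraries with an FPKM of 1 or higher).

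Foxp3 itself did not differ between the groups beyond its spread, and neither did Ikzf2 or Il2ra. Foxp3 (ENSMUSG00000039521, chromosome X, 7439883 to 7461484 on the build of the deposited table, which it does not name) had 2.57, 1.51, 2.08, 2.39 and 2.49 FPKM in MM 1 to MM 5 and 2.28, 2.51, 2.85, 2.29 and 2.48 FPKM in MN 1 to MN 5. Its level in the 6 OS libraries was 1.16 FPKM at the lowest, 2.06 at the median and 4.01 at the highest, and in ON 1 to ON 5 it was 2.65, 1.43, 2.49, 1.43 and 2.14 FPKM. In CT 1 to CT 5 it was 1.32, 2.47, 2.39, 0.718 and 2.56 FPKM. All 5 codes overlapped, with OS 4 the highest and CT 4 the lowest library. The log2 difference from saline was 0.14 ± 0.19 in OS (95% interval -0.26 to 0.54, adjusted p = 0.792), 0.10 ± 0.20 in ON (adjusted p = 0.889), 0.19 ± 0.20 in MM (adjusted p = 0.785) and 0.32 ± 0.20 in MN (adjusted p = 0.910). The interval in OS includes a rise of up to 0.54 on the log2 scale.

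Ikzf2 encodes Helios, a transcription factor of the Ikaros family found in many regulatory T cells, and it varied least of the members, from 1.35 FPKM in OS 3 to 2.58 FPKM in MN 4. Its mean was 1.85 ± 0.301 FPKM in OS (SD, n = 6) and 1.90 ± 0.131 FPKM in saline (SD, n = 5), a log2 difference of -0.03 ± 0.10 (adjusted p = 0.916). Il2ra encodes CD25, the high-affinity chain of the interleukin-2 receptor, and ranged from 1.53 FPKM in OS 3 to 3.33 FPKM in ON 1. Its mean was 2.31 ± 0.614 FPKM in OS and 2.15 ± 0.462 FPKM in saline, a log2 difference of 0.06 ± 0.15 (adjusted p = 0.890). Il2ra, the member with a match to the seed, averaged 2.49 ± 0.496 FPKM in MM (SD, n = 5), with a log2 difference from saline of 0.15 ± 0.15 (adjusted p = 0.783). In MN it averaged 2.25 ± 0.314 FPKM (SD, n = 5), with a difference from saline of 0.06 ± 0.15 (adjusted p = 0.954). Between OVA with mimic, at 2.37 ± 0.410 FPKM (SD, n = 10), and OVA, at 2.31 ± 0.635 FPKM (SD, n = 11), Il2ra differed by 0.04 ± 0.11 (95% interval -0.18 to 0.26, adjusted p = 0.909). For Ikzf2 the difference between MM and saline was 0.05 ± 0.10 (adjusted p = 0.891).

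**Figure D1:**
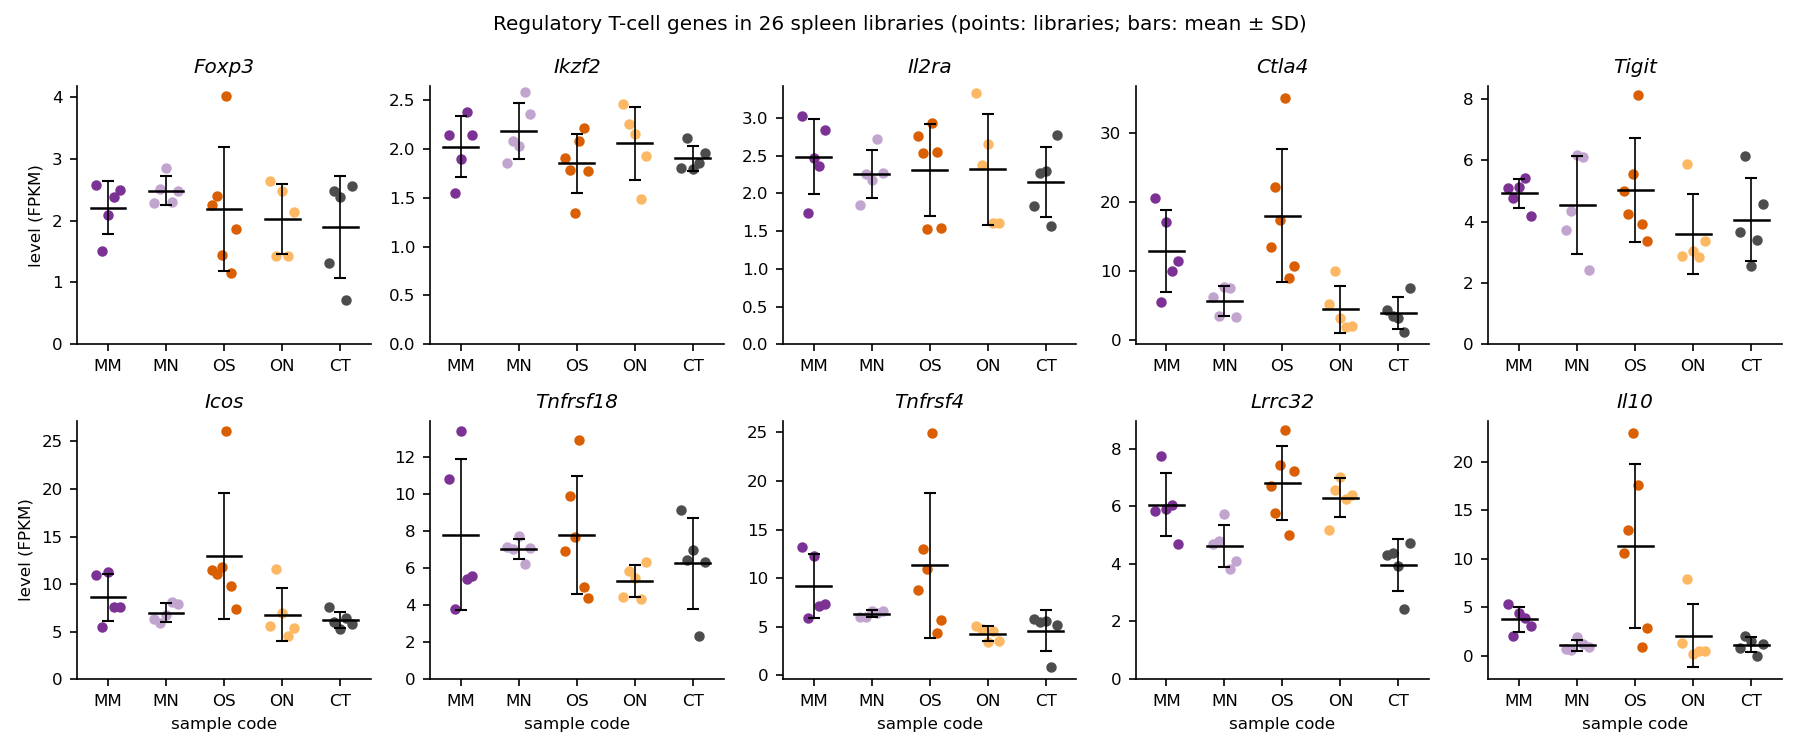
Level of each of the 10 genes in FPKM (vertical axes, own scale per panel) in the libraries of each sample code (horizontal axes), with points for libraries and black bars for the mean ± SD. Foxp3, Ikzf2 and Il2ra overlap in all codes, while Ctla4 in the 6 OS libraries sits between 9.01 and 35.1 FPKM, above the 5 CT libraries at 1.22 to 7.60 FPKM.

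Among the co-inhibitory receptors, Ctla4 rose in OS and Tigit did not pass the test. Ctla4 (ENSMUSG00000026011, chromosome 1, 60926159 to 60954991) encodes CTLA-4, which competes with CD28 for CD80 and CD86. It had 20.5, 5.49, 17.1, 10.04 and 11.5 FPKM in MM 1 to MM 5 and 6.22, 3.50, 7.76, 7.61 and 3.38 FPKM in MN 1 to MN 5. In the OS libraries it was 9.01 FPKM at the lowest, 15.5 at the median and 35.1 at the highest, and in ON 1 to ON 5 it was 5.20, 10.1, 3.25, 1.94 and 2.14 FPKM. In CT 1 to CT 5 it was 4.36, 3.47, 3.25, 1.22 and 7.60 FPKM. All 6 OS libraries lay above all 5 saline libraries, and 5 of 6 lay above all ON libraries, where ON 2 stood above the other 4. The log2 difference was 1.93 ± 0.38 for OS against saline (adjusted p = 0.00637) and 1.83 ± 0.38 for OS against ON (adjusted p = 0.0417). For ON against saline it was 0.10 ± 0.40 (adjusted p = 0.952).

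Between OS and saline the call for Ctla4 held under every alternative run, with adjusted p from 0.00159 to 0.0421. Between OS and ON the adjusted p was 0.123 to 0.200 with any one of OS 2, OS 3, OS 4 or ON 1, or of ON 3, ON 4 or ON 5, left out, and 0.0618 with a pseudocount of 0.1, 0.108 without the filter on low values and 0.235 in a fit to the OS and ON libraries alone. Tigit encodes a receptor that binds CD155, and ranged from 2.41 FPKM in MN 5 to 8.13 FPKM in OS 4. Its mean was 5.03 ± 1.70 FPKM in OS and 4.06 ± 1.36 FPKM in saline, with a log2 difference of 0.25 ± 0.21 (adjusted p = 0.603).

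Of the co-stimulatory receptors, Icos passed the test in OS against saline, while Tnfrsf4 and Tnfrsf18 did not. Icos (ENSMUSG00000026009, chromosome 1, 61017086 to 61039479) encodes a relative of CD28 that binds ICOS ligand. It had 11.0, 5.51, 11.3, 7.56 and 7.60 FPKM in MM 1 to MM 5 and 6.34, 5.86, 6.75, 8.12 and 7.93 FPKM in MN 1 to MN 5. In OS it was 7.37 FPKM at the lowest, 11.3 at the median and 26.1 at the highest, and in ON 1 to ON 5 it was 5.60, 11.6, 6.90, 4.52 and 5.34 FPKM. In CT 1 to CT 5 it was 7.53, 6.05, 5.28, 6.38 and 5.83 FPKM. Of the OS libraries, 5 of 6 lay above all saline libraries, and OS 4 stood far above the rest. The log2 difference between OS and saline was 0.85 ± 0.23 (adjusted p = 0.0411), and between OS and ON 0.80 ± 0.23 (adjusted p = 0.157). The call against saline was lost without OS 1, OS 2, OS 3, OS 4, CT 2, CT 3, CT 4 or CT 5 in turn (adjusted p 0.0530 to 0.102), without the filter on low values (0.0879) and in a fit to OS and CT alone (0.171).

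Tnfrsf4 and Tnfrsf18 encode OX40 and GITR, receptors of the tumour necrosis factor family that neighbour each other on chromosome 4. Tnfrsf4 had 13.2, 5.93, 12.2, 7.15 and 7.30 FPKM in MM 1 to MM 5 and 5.99, 5.97, 6.66, 6.42 and 6.66 FPKM in MN 1 to MN 5. In OS it was 4.35 FPKM at the lowest, 9.90 at the median and 25.0 at the highest, and in ON 1 to ON 5 it was 5.11, 4.81, 3.46, 4.57 and 3.52 FPKM. In CT 1 to CT 5 it was 5.79, 5.51, 5.54, 0.820 and 5.19 FPKM. All MM and all MN libraries lay above all saline libraries, while OS overlapped saline in OS 5 and OS 6. The log2 difference from saline was 1.09 ± 0.33 in OS (adjusted p = 0.0736), 0.95 ± 0.34 in MM (adjusted p = 0.315) and 0.54 ± 0.34 in MN (adjusted p = 0.910). Without OS 5, the lowest OS library, the difference between OS and saline was 1.29 with an adjusted p of 0.0218, so this library moved the call. Of 11 fits without 1 library, 10 did not pass (limma, adjusted p up to 0.173). Without CT 4, the lowest saline library, the difference from saline was 0.72 in OS, 0.58 in MM and 0.17 in MN. Between OS and ON, Tnfrsf4 differed by 1.03 ± 0.33 (adjusted p = 0.220), or by 1.23 without OS 5 (adjusted p = 0.0495). There too, 10 of 11 fits without 1 library did not pass (limma, adjusted p up to 0.466). Tnfrsf18 ranged from 2.35 FPKM in CT 4 to 13.4 FPKM in MM 3, with a mean of 7.80 ± 3.19 FPKM in OS, 6.25 ± 2.46 FPKM in saline and a log2 difference of 0.29 ± 0.27 (adjusted p = 0.665).

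Lrrc32 was the member that rose under OVA as a whole. Lrrc32 (ENSMUSG00000090958, chromosome 7, 98138490 to 98151388) encodes GARP, the membrane protein that holds latent TGF-beta on the cell surface. It had 5.83, 7.74, 5.92, 6.06 and 4.69 FPKM in MM 1 to MM 5 and 4.70, 4.79, 5.73, 3.82 and 4.09 FPKM in MN 1 to MN 5. In OS it was 5.02 FPKM at the lowest, 6.97 at the median and 8.66 at the highest, and in ON 1 to ON 5 it was 5.19, 6.57, 7.03, 6.26 and 6.39 FPKM. In CT 1 to CT 5 it was 4.30, 4.38, 3.93, 2.42 and 4.73 FPKM. All 11 OVA libraries lay above all 5 saline libraries, while MM and MN overlapped both. The mean was 6.57 ± 1.04 FPKM under OVA (SD, n = 11) and 3.95 ± 0.902 FPKM under saline (SD, n = 5), a log2 difference of 0.62 ± 0.12 (adjusted p = 0.00794). The log2 difference was 0.66 ± 0.13 for OS against saline (adjusted p = 0.00734), 0.57 ± 0.14 for ON against saline (adjusted p = 0.0568) and 0.09 ± 0.13 for OS against ON (adjusted p = 0.854). Without CT 4, ON 2, ON 3 and MM 2, an alternative chosen after seeing the data, the difference under OVA was 0.46 with an adjusted p of 0.0568. For OS against saline the call was lost in a fit to those libraries alone (adjusted p = 0.102).

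Il10 encodes interleukin-10, a cytokine that dampens antigen presentation and inflammation, and it ranged from 0 in CT 4 to 23.0 FPKM in OS 3. Il10 (ENSMUSG00000016529, chromosome 1, 130947582 to 130952711) had 5.36, 2.00, 4.39, 3.90 and 3.02 FPKM in MM 1 to MM 5 and 0.664, 0.598, 1.91, 1.16 and 0.934 FPKM in MN 1 to MN 5. In OS it was 0.853 FPKM at the lowest, 11.8 at the median and 23.0 at the highest, and in ON 1 to ON 5 it was 1.35, 7.89, 0.185, 0.437 and 0.511 FPKM. In CT 1, CT 2, CT 3 and CT 5 it was 0.808, 2.01, 1.52 and 1.25 FPKM, and in CT 4 no read was found, which allows a level of up to 0.171 FPKM (3 reads, counting error only). All 5 MM libraries lay above all 5 MN libraries, 4 of 5 lay above all saline libraries, and OS fell into OS 1 to OS 4 at 10.6 FPKM or more and OS 5 and OS 6 at 2.81 FPKM or less. The reads behind these values numbered 4 in ON 3, 11 in ON 4 and 414 in OS 3. The log2 difference between OS and saline was 2.17 ± 0.53 (adjusted p = 0.0261), and between OS and ON 2.01 ± 0.53 (adjusted p = 0.116). The call against saline was lost without OS 2, OS 3, OS 4 or CT 4 in turn (adjusted p 0.0555 to 0.0710), without the filter on low values (0.0610), in a fit to OS and CT alone (0.166) and with limma voom on recovered reads, where the difference was 3.40 (adjusted p = 0.101). Without ON 2, the highest ON library, the difference between OS and ON was 2.51 with an adjusted p of 0.0100, and without OS 5 it was 2.46 (adjusted p = 0.00785). Of 11 fits without 1 library, 9 did not pass, with differences down to 1.73 (limma, adjusted p up to 0.330). Of 9 other alternatives for OS against ON, 6 did not pass (adjusted p up to 0.473).

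**Figure D2:**
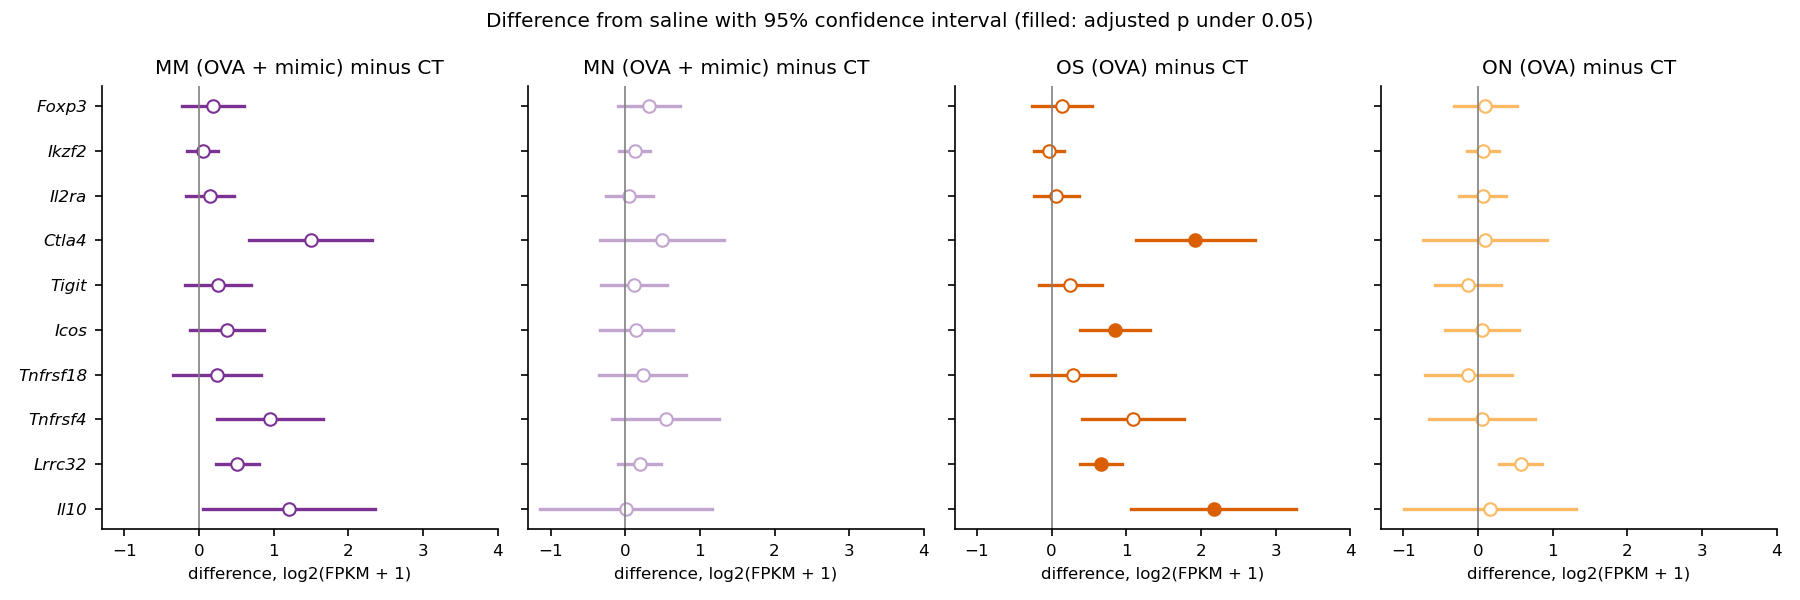
Difference of each gene from the 5 saline libraries in log2(FPKM + 1) (horizontal axes), with its 95% confidence interval, for MM, MN, OS and ON (panels from left to right), filled where the adjusted p was under 0.05. In OS the filled points are Ctla4 at 1.93, Icos at 0.85, Lrrc32 at 0.66 and Il10 at 2.17, and no point is filled in the other panels.

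Counted over the members, 4 of 10 rose in OS against saline, a comparison in which 2.99% of all genes tested were called. The median difference of the 10 was 0.48, against 3.66e-05 over all genes. The members were chosen with earlier results of these data known, so 4 of 10 is a description and not a test. The 4 were Ctla4, Icos, Lrrc32 and Il10, while Foxp3, Ikzf2 and Il2ra lay between -0.03 and 0.14. In ON against saline, where 0.51% of genes were called, 0 of 10 members passed, and limma voom called 0. At an unadjusted p under 0.05 there was 1 of the 10 members, beside 2136 of all 15672 genes. The OVA comparison that averages OS and ON called Lrrc32, 1 of 10 members, against 2.17% of all genes. In that comparison Ctla4 differed by 1.01 ± 0.34 (adjusted p = 0.119), Il10 by 1.17 ± 0.48 (adjusted p = 0.209) and Foxp3 by 0.12 ± 0.17 (adjusted p = 0.797). Between OS and ON, where 0.185% of genes were called, Ctla4 was the 1 member of 10 that passed, and Foxp3 differed by 0.04 ± 0.19 (adjusted p = 0.958). OS against saline, ON against saline and the 2 mimic codes against saline share the same 5 saline libraries.

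With the mimic no member passed the main test in any comparison, while with library weights Ctla4 passed in MM against saline (1.32, adjusted p = 0.0290). Against OVA alone 0% of genes were called, and 0 of 10 members passed. Beside 1590 of all 15672 genes, 1 of the 10 members had an unadjusted p under 0.05. That member was Lrrc32, with 5.34 ± 1.16 FPKM under OVA with mimic (SD, n = 10) and 6.57 ± 1.04 FPKM under OVA (SD, n = 11), a log2 difference of -0.26 ± 0.10 (adjusted p = 0.380). Il10 differed by -0.55 ± 0.39 (adjusted p = 0.625), Ctla4 by -0.02 ± 0.28 (95% interval -0.59 to 0.56, adjusted p = 0.986) and Foxp3 by 0.14 ± 0.14 (adjusted p = 0.750) between OVA with mimic and OVA. Against saline, OVA with mimic again called 0% of genes and 0 of 10 members. At an unadjusted p under 0.05 there were 3 of the 10 members, beside 1053 of all 15672 genes. Lrrc32 differed by 0.36 ± 0.12, Ctla4 by 1.00 ± 0.35 (adjusted p = 0.732 for each) and Foxp3 by 0.26 ± 0.17 (adjusted p = 0.741). In these 2 comparisons limma voom called 0 members.

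Within the mimic treatment, Ctla4 and Il10 had higher means in MM than in MN without passing the test. In MM against MN, where 0.172% of genes were called, 0 of 10 members passed. At an unadjusted p under 0.05 there were 3 of the 10 members, beside 1137 of all 15672 genes. Ctla4 averaged 12.9 ± 5.93 FPKM in MM and 5.69 ± 2.15 FPKM in MN (SD, n = 5 each), a log2 difference of 1.00 ± 0.40 (adjusted p = 0.540). Il10 averaged 3.73 ± 1.29 FPKM in MM and 1.05 ± 0.530 FPKM in MN, a difference of 1.19 ± 0.56 (adjusted p = 0.652, or 0.0373 in a fit to MM and MN alone). All 10 fits for Il10 without 1 library did not pass (limma, adjusted p 0.555 to 0.942). Tnfrsf4 differed by 0.41 ± 0.34 (adjusted p = 0.912) and Foxp3 by -0.13 ± 0.20 (adjusted p = 0.981) between MM and MN.

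In MM against saline 0.3% of genes and 0 of 10 members were called. At an unadjusted p under 0.05 there were 4 of the 10 members, beside 1532 of all 15672 genes. Ctla4 differed by 1.50 ± 0.40 (adjusted p = 0.119), Lrrc32 by 0.52 ± 0.14 (adjusted p = 0.124), Il10 by 1.21 ± 0.56 (adjusted p = 0.486) and Icos by 0.38 ± 0.24 (adjusted p = 0.634). Without ON 2, ON 3 and MM 2 the difference in Ctla4 was 1.74 with an adjusted p of 0.0424. All 10 fits for Ctla4 without 1 library did not pass (limma, adjusted p 0.0665 to 0.273). In MN against saline 0% of genes and 0 of 10 members were called. None of the members had an unadjusted p under 0.05, beside 451 of all 15672 genes. Ctla4 differed there by 0.49 ± 0.40 and Lrrc32 by 0.20 ± 0.14 (adjusted p = 0.910 for each). Limma voom also called 0 members in MM against MN and in both mimic codes against saline.

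Set against the T cells in the same library, Foxp3 did not differ beyond its spread in any of 5 comparisons. The difference between log2(FPKM + 1) of Foxp3 and the mean of 10 core T-cell genes (among them Cd3e, Cd4 and Lck) was -2.23 ± 0.146 under OVA (SD, n = 11) and -2.41 ± 0.244 under saline (SD, n = 5). The change of 0.18 had an exact two-sided permutation p of 0.110 (0.549 adjusted over 5 comparisons). Between OVA with mimic and OVA it was -0.09 (permutation test, adjusted p = 0.807), and between OVA with mimic and saline 0.09 (exact permutation test, adjusted p = 0.887). Between OS and ON it was -0.02 and between MM and MN -0.01 (exact permutation tests, adjusted p = 0.968 for each). The sign of the values between OS and ON and between MM and MN changed when Cd4 alone stood for the T cells.

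Relative to Foxp3, Ctla4 stood higher in OS than in saline in every library, a description with no test. The ratio of Ctla4 to Foxp3 had a median of 4.60 in MM and 2.72 in MN. It was 8.26 in OS, 1.36 in ON and 1.70 in saline, and ranged from 5.79 to 12.1 in OS and from 1.36 to 3.30 in saline, with no overlap. The ratio of Il10 to Foxp3 had a median of 1.63 in MM, 0.376 in MN, 4.55 in OS, 0.305 in ON and 0.612 in saline. The ratio of Il2ra to Foxp3 had a median of 1.15 in MM, 0.902 in MN, 1.06 in OS, 1.13 in ON and 1.08 in saline, and that of Ikzf2 lay between 0.831 and 0.930 in all 5 codes.

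Across the 26 libraries, Ctla4, Icos, Tnfrsf4 and Il10 varied together. On log2(FPKM + 1), the correlation of Ctla4 was 0.86 with Il10, 0.85 with Tnfrsf4 and 0.83 with Icos (Pearson's r, Spearman's rho 0.87, 0.78 and 0.80), against 0.38 with Foxp3 (rho 0.21). After each code's mean was taken off, r was 0.74 for Ctla4 and Il10, 0.75 for Ctla4 and Tnfrsf4, 0.71 for Ctla4 and Icos and 0.53 for Ctla4 and Foxp3. Foxp3 and Tnfrsf4 had an r of 0.61, or 0.71 after each code's mean was taken off, so Foxp3 did not stand apart from all of these genes. Ctla4 also had an r of 0.64 with Tigit and 0.63 with Tnfrsf18 (0.60 and 0.70 without code means). Tnfrsf18 and Tnfrsf4 had an r of 0.83, Ikzf2 and Il2ra one of 0.69, and Foxp3 and Il2ra one of 0.61. Lrrc32 had an r of 0.53 with Ctla4 and 0.28 with Foxp3. These values are descriptions over libraries that share their depth, their cell make-up and their processing.

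**Figure D3:**
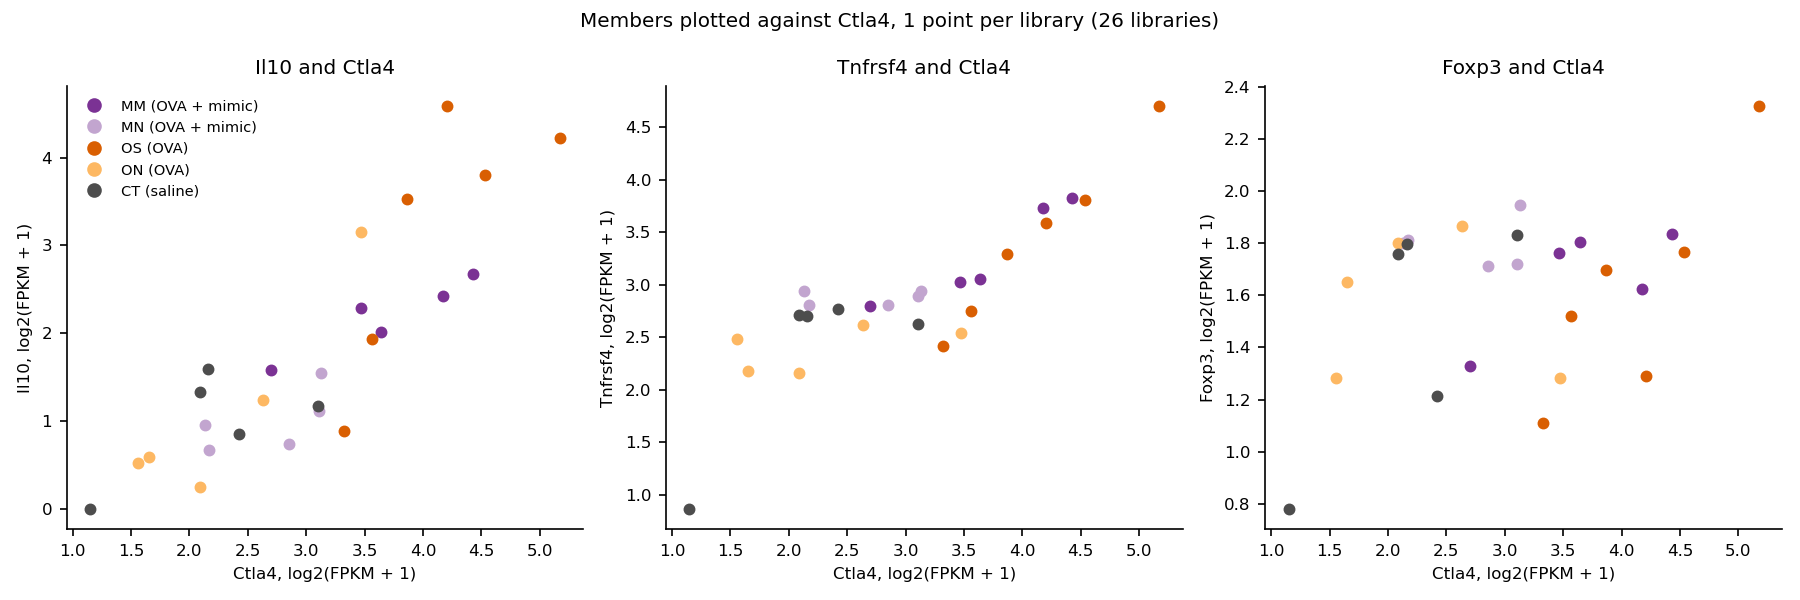
Il10, Tnfrsf4 and Foxp3 (vertical axes) against Ctla4 (horizontal axes), all in log2(FPKM + 1), with 1 point for each of 26 libraries coloured by code. Il10 and Tnfrsf4 climb with Ctla4 (r of 0.86 and 0.85), while Foxp3 is spread over the whole range of Ctla4 apart from OS 4 at the top and CT 4 at the bottom (r of 0.38).

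The genes most like each member, by Pearson's r of log2(FPKM + 1) over the 26 libraries among protein-coding genes tested, differed between members. For Ctla4 they were Kcne4, Gm6377, Dusp5, Bhlhe40 and Gem (r 0.94 each). For Il10 they were Tnfaip3, Cd83, Hbegf, Rasgef1b and Hilpda (r 0.94 to 0.97). For Foxp3 they were Krba1, Adgre5, Il27ra, Plekhg2 and Atp8b2 (r 0.86 to 0.89, Spearman's rho 0.66 to 0.89). For Lrrc32 they were Zyx, Selenon, Tgfb1i1, Trp53inp2 and Smtn (r 0.83 to 0.92, rho 0.76 to 0.90). Without CT 4, ON 2, ON 3 and MM 2, r was 0.80 to 0.88 for Foxp3 and 0.75 to 0.89 for Lrrc32. It was then 0.93 to 0.97 for Ctla4 and 0.93 to 0.96 for Il10.

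Of 13 tested genes, from a list of 16 others associated with regulatory T cells, the median difference in OS against saline was -0.03. Beside 2.99% of all genes called, 1 of the 13 rose and 12 did not pass. The 1 was Ccr8, a chemokine receptor of tissue regulatory T cells, with 2.06 ± 1.03 FPKM in OS and 0.490 ± 0.413 FPKM in saline (log2 difference 1.01 ± 0.21, adjusted p = 0.00845, or 0.101 in a fit to OS and CT alone). Tnfrsf1b, the receptor TNFR2, differed by 0.39 ± 0.15 (adjusted p = 0.187). Of 9 tested genes of interleukin-2 receptor signalling and 10 tested ligands and receptors of the members, 0 passed, with medians of 0.13 and 0.45. At an unadjusted p under 0.05 there were 0 of the 9 and 6 of the 10, beside 2557 of all 15672 genes. Limma voom called 0 in both lists. Il10ra, the binding chain of the interleukin-10 receptor, had 70.1 ± 23.9 FPKM in OS and 47.7 ± 11.6 FPKM in saline (log2 difference 0.52 ± 0.20, adjusted p = 0.186). Of 11 tested genes of the latent TGF-beta system, in which Lrrc32 acts, 1 rose and 10 did not pass, again beside 2.99% of all genes. That gene was Itgav, an integrin chain that frees TGF-beta, with a log2 difference of 0.42 ± 0.11 (adjusted p = 0.0435). Leaving out OS 1, OS 2, OS 4, OS 5, OS 6, CT 1, CT 2, CT 3 or CT 4 in turn ended that call (adjusted p 0.0575 to 0.0900), as did 6 other alternatives (0.0815 to 0.235).

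Immediate early genes, which respond quickly to cell activation and stress, differed beside Ctla4 and Il10. Of 14 tested in OS against saline 9 rose and 5 did not pass, beside 2.99% of all genes called. The median difference was 1.67, against 3.66e-05 over all genes. Without 1 library, 5 to 14 of these immediate early genes were called. Among them Nr4a2 rose by 1.40 ± 0.25 (adjusted p = 0.00302), Nr4a3 by 1.66 ± 0.31 (adjusted p = 0.00411) and Atf3 by 2.72 ± 0.53 (adjusted p = 0.00544, or 0.0651 in a fit to OS and CT alone). The summed level of the 14 genes was 363 to 1193 FPKM in MM, 146 to 306 FPKM in MN, 190 to 1279 FPKM in OS, 145 to 442 FPKM in ON and 67.7 to 426 FPKM in saline. For the sum, Ctla4 and Il10 alike, OS 5 was the lowest OS, ON 2 the highest ON and CT 4 the lowest saline library. MM 1 and MN 3 were likewise the highest of their codes. ON 2 held 23.3% of reads on pancreatic genes and CT 4 6.62% on mitochondrial genes. Other extremes differed. The lowest MM library was MM 4 for the sum and MM 2 for both genes. The lowest ON library was ON 5 for the sum, ON 4 for Ctla4 and ON 3 for Il10. For Ctla4 the lowest MN library was MN 5, not MN 2, and the highest OS library OS 4, not OS 3. For Il10 the highest saline library was CT 2, not CT 5. The part of the immediate early genes in the differences of Ctla4 and Il10 was not tested. The core T-cell genes gave 0 of 10 called in OS against saline by limma and 0 by voom, with a median of -0.07. At an unadjusted p under 0.05 there were 0 of these 10, beside 2557 of all 15672 genes. OS 4, the highest library for Foxp3, Ctla4, Tigit, Icos, Tnfrsf4 and Lrrc32, also had the highest sum of the core T-cell genes, at 277 FPKM.

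Megakaryocyte and platelet genes were followed beside Lrrc32. Of 8 listed, 7 were tested in OVA against saline, where 1 rose and 6 did not pass, beside 2.17% of all genes called. Without 1 library, 0 to 1 passed. At an unadjusted p under 0.05 there were 2 of the 7, beside 2553 of all 15672 genes. All 7 lay above 0, with a median of 0.36, against 0.00799 over all genes. The summed level of the 8 genes was 413 to 777 FPKM in MM, 403 to 651 FPKM in MN, 467 to 937 FPKM in OS, 539 to 992 FPKM in ON and 437 to 759 FPKM in saline. Of 7 tested endothelial genes 0 passed in OVA against saline by limma and 0 by voom, with a median of 0.05. Beside 2553 of all 15672 genes, 0 of these endothelial genes had an unadjusted p under 0.05. The sums of the 8 listed were 82.6 to 121 FPKM in OS, 82.8 to 107 FPKM in ON and 75.6 to 106 FPKM in saline. CT 4 had the highest platelet sum of the saline libraries and the lowest level of Lrrc32. This library also held 6.62% of reads on mitochondrial genes and was the lowest for Foxp3, Ctla4, Tnfrsf18, Tnfrsf4 and Il10. The part of platelets and endothelium in the difference of Lrrc32 was not tested.

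**Figure D4:**
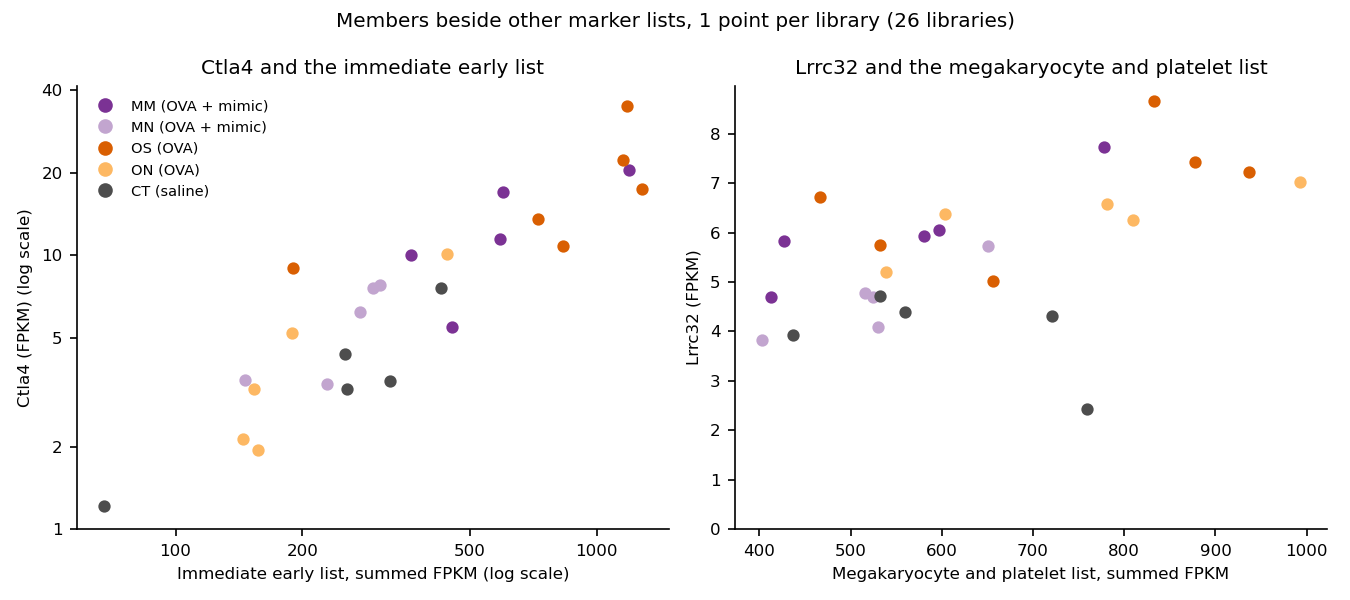
Left, Ctla4 in FPKM (vertical, log scale) against the summed FPKM of 14 immediate early genes (horizontal, log scale); right, Lrrc32 in FPKM (vertical) against the summed FPKM of 8 megakaryocyte and platelet genes (horizontal), with 1 point per library. CT 4 is lowest for Ctla4 at 1.22 FPKM and for the immediate early sum at 67.7 FPKM, while OS 5 holds 9.01 FPKM of Ctla4 at a sum of 190 FPKM. For Lrrc32 all 11 OVA libraries lie above the 5 saline libraries, and 6 of the 11 have platelet sums above the highest saline sum of 759 FPKM.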

How the data were processed

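Poly(A) RNA of the spleen was sequenced in 26 libraries. The authors deposited FPKM for 56392 genes. Tools listed in the submitters' processing notes, without roles, include HISAT2 2.0.5 and featureCounts 1.5.0-p3; the build was not given in the sources used. FPKM times gene length gave whole reads for 100% of values (tolerance 0.05). A single read on 1 kilobase is worth 0.0520 to 0.0899 FPKM, and this precision covers counting error only.

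limma 3.58.1 (R 4.3.3) fitted log2(FPKM + 1) with 1 mean per code over all 26 libraries and a variance trend, with Benjamini-Hochberg adjustment in each of 9 comparisons. The OVA mean averages OS with ON, and the mimic mean averages MM with MN. The fit was tested on simulated data. Foxp3 relative to T-cell genes was tested by permutation (SciPy 1.17.1, 100000 resamples where both groups had 10 or more libraries). All 10 members were named. From each list up to 4 genes that passed, by smallest p, and up to 2 others, by mean FPKM, could be named, and for Foxp3, Ctla4, Lrrc32 and Il10 the 5 genes most like each. The result of 1 listed gene is not reported here. The members and lists were chosen with earlier results of these data known. Alternatives were another pseudocount (0.1), no filter, limma voom on recovered reads, scaling to plain read totals, only the groups compared, a replicate block, library weights, 1 mean per treatment, and libraries left out. Promoter and microRNA sequences are from RefSeq (GRCm38.p6), untranslated regions from GENCODE (GRCm38), and coordinates of genes from the deposited table.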

Additional observations from a re-analysis of the deposited data

Results flagged for a closer look

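In 4 of 50 groups, each 1 gene in 1 code, a single library stood apart from the others of its code by more than Dixon's 95% limit, where chance alone flags about 1 in 20. Tigit was 5.87 FPKM in ON 2, against 2.83 to 3.38 FPKM in the other ON libraries. Il10 was 7.89 FPKM in ON 2, against 0.185 to 1.35 FPKM in the other ON libraries, and ON 2 is also the library with 23.3% of reads on pancreatic genes. Icos was 26.1 FPKM in OS 4, against 7.37 to 11.8 FPKM in the other OS libraries. Tnfrsf4 was 0.820 FPKM in CT 4, against 5.19 to 5.79 FPKM in the other saline libraries. The effect of OVA on Ctla4 relative to saline differed between the codes OS and ON by 1.83 on the log2 scale (limma, adjusted p = 0.0417).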

How the results depend on the processing

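The number of members called in OS against saline was 4, and 2 without the filter on low values, 1 in a fit to OS and CT alone, and 2 to 5 without 1 library. In OS against ON it was 1. It was 0 with a pseudocount of 0.1, without the filter, in a fit to those groups alone and with a replicate block, 4 with library weights, 3 without ON 2, ON 3 and MM 2, 3 without CT 4 as well, and 0 to 3 without 1 library. In OVA against saline it was 1, and 0 without CT 4, ON 2, ON 3 and MM 2. In ON against saline (library weights), in MM against saline (library weights, or without ON 2, ON 3 and MM 2) and in MM against MN (those groups alone) 0 became 1. Leaving out 4 libraries was chosen after seeing the data. Same-numbered libraries were no more alike than others. The 50 same-numbered pairs correlated at -0.394 to 0.356 (median -0.0437) and 220 other pairs at -0.46 to 0.492 (median 0.00559). These correlations cannot exclude a pairing. The replicate block changed no other count of members by over 1.5 times. With the block, 4 members passed in OS against saline and the difference in Ctla4 between OS and ON was 1.94 (limma, adjusted p = 0.0893).

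None of the reversed values below was called. With library weights the difference became -0.13 for Foxp3 in OVA against saline, and in OS against saline -0.0927 for Foxp3 and -0.0513 for Il2ra. With the same weights it became -0.16 for Foxp3, -0.40 for Ctla4 and -0.55 for Il10 in ON against saline, and -0.0180 for Foxp3 in MM against saline. Without CT 4, ON 2, ON 3 and MM 2 it became -0.0417 for Foxp3 in OVA against saline, -0.0325 for Foxp3 and -0.0076 for Il2ra in OS against saline, and -0.0509 for Foxp3, -0.50 for Ctla4 and -0.45 for Il10 in ON against saline. For Il2ra in MN against saline it became -0.0606 with library weights and -0.0136 without CT 4, ON 2, ON 3 and MM 2, and ranged from -0.0136 to 0.124 without 1 library. Without ON 2, ON 3 and MM 2 it became -0.24 for Ctla4 and -0.20 for Il10 in ON against saline. For Ctla4 in OVA with mimic against OVA it became 0.0225 with a pseudocount of 0.1, 0.0905 with voom, 0.0374 scaled to plain read totals, 0.11 with library weights and 0.27 without ON 2, ON 3 and MM 2 (with or without CT 4). Without 1 library at a time it ranged from -0.11 to 0.13 there, from -0.20 to 0.33 for Ctla4, -0.0739 to 0.19 for Foxp3 and -0.34 to 0.39 for Il10 in ON against saline, and from -0.10 to 0.14 for Foxp3 in OS against ON. In OS against saline the range was -0.0325 to 0.24 for Foxp3, -0.0679 to 0.0227 for Ikzf2 and -0.0076 to 0.14 for Il2ra, and in OVA against saline -0.0532 to 0.21 for Foxp3.

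Foxp3 relative to T-cell genes became 0.149 in OS against ON and 0.0317 in MM against MN with Cd4 alone, and 0.0533 in OS against ON without ON 2, ON 3 and MM 2 (with or without CT 4). Without 1 library it ranged from -0.0647 to 0.0250 in OS against ON, from -0.101 to 0.0982 in MM against MN and from -0.0109 to 0.142 in OVA with mimic against saline. The number of immediate early genes called ranged from 2 to 14 in OS against saline and from 0 to 14 in OS against ON. The cause of these changes was not tested. Depth limits Il10 most, with 12 to 46 reads in the MN libraries and 0 to 43 in the CT libraries.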

Other observations

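Of the lists of other lymphocytes in OS against saline, 0 of 6 B-cell genes passed by limma and 0 by voom. Beside 2557 of all 15672 genes, 0 of these 6 had an unadjusted p under 0.05. In that comparison 2.99% of all genes tested were called. Of 8 tested genes of CD8 T cells and natural killer cells, 2 fell and 6 did not pass. Gzma, a granzyme of cytotoxic cells, averaged 23.8 ± 3.73 FPKM in OS and 38.9 ± 6.09 FPKM in saline (log2 difference -0.69 ± 0.13, limma, adjusted p = 0.00471, or 0.0652 in a fit to OS and CT alone). Ncr1, a receptor of natural killer cells, averaged 5.88 ± 2.03 FPKM in OS and 10.9 ± 0.647 FPKM in saline (-0.84 ± 0.22, adjusted p = 0.0400, and 0.0604 to 0.102 without OS 1, OS 2, OS 3, OS 4 or any 1 of the 5 CT libraries, and 0.0506 to 0.118 under 4 other alternatives). Of 6 plasma-cell genes 1 rose, Prdm1, which encodes Blimp-1, a regulator of plasma cells and of Il10 in T cells, with 7.00 ± 0.961 FPKM in OS and 3.29 ± 0.608 FPKM in saline (0.90 ± 0.13, adjusted p = 0.000613). The other 5 plasma-cell genes did not pass, Jchain among them at 561 ± 114 FPKM in OS and 504 ± 92.5 FPKM in saline (0.15 ± 0.15, adjusted p = 0.687).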
